A study of Mus musculus with 6 samples.

Results

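The clustered protocadherins are neuronal cell-adhesion proteins encoded by 3 neighbouring gene arrays, alpha, beta and gamma, and their DNA methylation was read here in mouse neocortex. Members were CpGs with at least 10 reads in at least 2 samples per genotype, after adding the reads of both strands, in an interval of chromosome 18 (18:37060000-37980000, mm39) that was divided into an alpha array (18:37060000-37325000), a beta array (18:37390000-37665000) and a gamma array (18:37785000-37980000). There were 825 member CpGs among 864621 autosomal CpGs that met the same coverage rule. The gamma array held 464 of them, the alpha array 153 and the beta array 149, and 59 lay between the arrays. Of the 766 CpGs in the arrays, 552 were covered in all 6 samples, and means per sample were taken over these so that every sample was averaged over the same CpGs.

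Each protocadherin of the alpha and gamma arrays starts from a variable first exon with its own promoter, which is spliced to constant exons shared by the array, whereas the beta genes have no such shared constant exons. A neuron uses only some of these promoters, and the resulting mix of proteins lets its branches tell self from other. DNA methylation of the variable promoters is known to accompany silence, and CTCF and cohesin bind the unmethylated ones. The last genes of the alpha array (Pcdhac1 and Pcdhac2) and of the gamma array (Pcdhgc3, Pcdhgc4 and Pcdhgc5) are the C-type genes, which are regulated apart from the others.

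Samples were whole P5 (postnatal day 5) neocortex, 3 labelled WT and 3 labelled Chd8+/-, heterozygous for the chromatin remodeller gene Chd8. Reduced representation bisulfite sequencing (RRBS) reads CpGs near MspI cut sites, and the methylation level is the percent of reads in which the cytosine resisted conversion. The labels give no strain, age beyond P5, sex or breeding, and do not say that the samples came from separate animals, so a p-value measures the spread between these samples, which may be technical. Summed coverage of listed cytosines was 45498222 to 54818138 reads in the WT samples and 32285980 to 39820333 in the Chd8+/- samples, so every Chd8+/- library was shallower. Reads on chromosome X were 1.18 to 1.21% of coverage in replicates 1 and 2, and 2.58% and 2.56% in the WT and Chd8+/- replicate 3. Over the arrays the median was 47 reads per CpG and sample, beside 40 over other autosomal CpGs. In bulk tissue a partial level can come from a mixture of cells, of alleles or of molecules, which cannot be told apart here.

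All 58 member genes were found in the RefSeq gene table, which follows GRCm38.p6 while the methylation calls follow mm39. That table gives the order of the genes but cannot place them on these coordinates, so levels are given by position and CpG density and not by gene. It lists 14 alpha genes ending in Pcdhac1 and Pcdhac2, then 22 beta genes, then Slc25a2 and Taf7, then 22 gamma genes ending in Pcdhgc3, Pcdhgc4 and Pcdhgc5, followed by Diaph1 and Hdac3. Pcdhgb8 is the 1 pseudogene among the members. The variable exons resemble each other, and whether a read could be placed at more than 1 of them was not tested.

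By its mean over the whole interval the beta array was the most methylated of the 3. The whole-interval means of the alpha and gamma arrays could not be told apart, although parts of the arrays differed, as given below. The beta array averaged 69.97, 71.2 and 66.6% in the WT samples, beside 68.6, 67.6 and 67.0% in the Chd8+/- samples. The alpha array averaged 40.9, 41.8 and 40.5% in WT and 42.6, 42.9 and 42.4% in Chd8+/-. The gamma array averaged 39.6, 41.6 and 40.9% in WT and 43.0, 41.3 and 42.3% in Chd8+/-. The beta array lay above both others in every sample.

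The alpha array was lower than the beta array by 26.6 ± 2.11 points (SD, n = 6; exact sign-flip test over samples, two-sided, p = 0.03125, the smallest that 6 samples allow; adjusted p = 0.0365 over 7 comparisons). The beta array exceeded the gamma array by 27.1 ± 2.36 points (SD, n = 6; exact p = 0.03125, adjusted p = 0.0365). Alpha and gamma differed by 0.414 ± 0.847 points (SD, n = 6; exact p = 0.406), with alpha the higher in 4 of 6 samples. Their order depended on the CpGs counted: alpha exceeded gamma by 6.10 points (exact p = 0.03125) over all member CpGs and alpha minus gamma was -2.47 points when CpGs were weighted by reads.

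**Figure D1:**
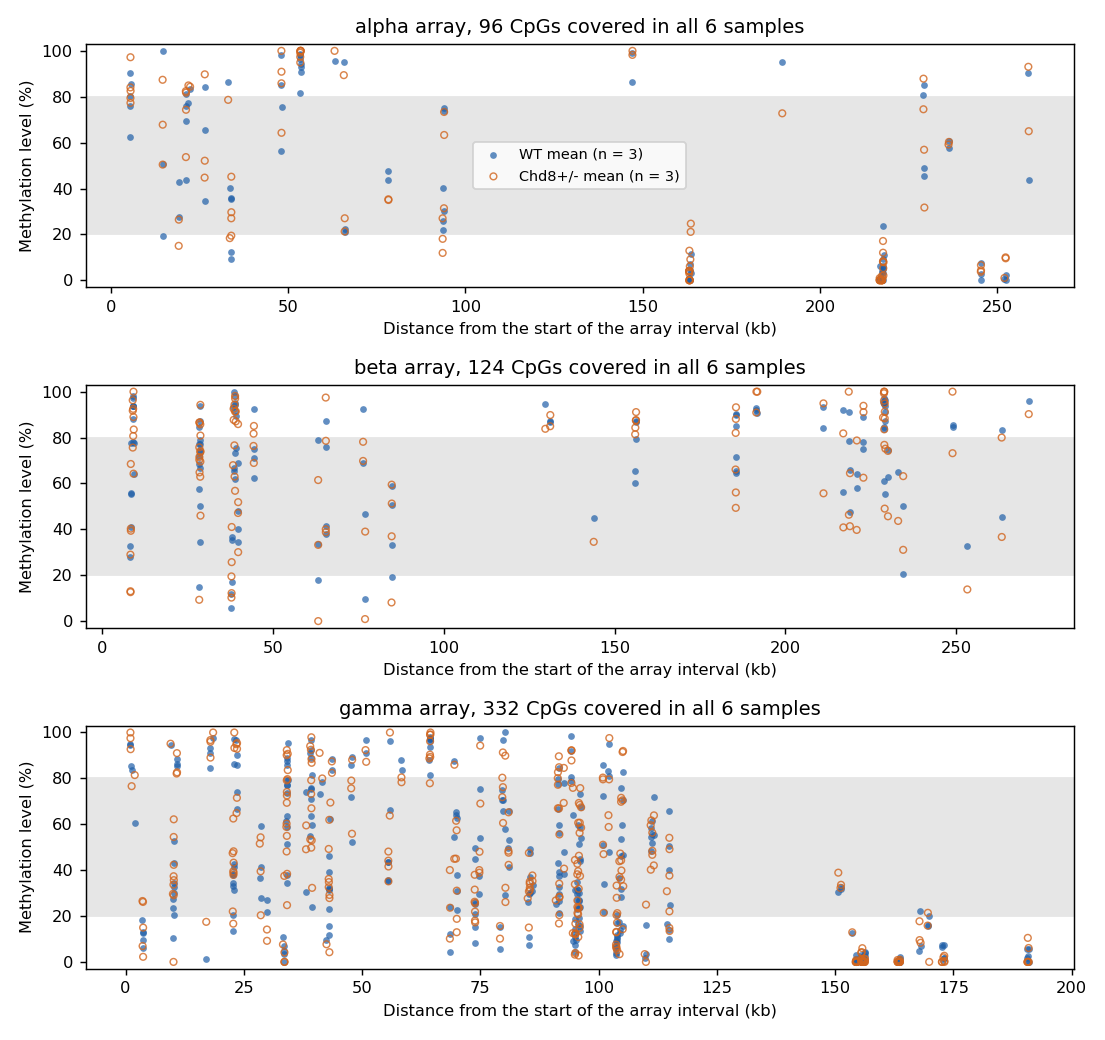
Methylation level (%) of each CpG covered in all 6 samples against its distance in kb from the start of the alpha, beta or gamma interval; filled points are WT means and open points Chd8+/- means (n = 3 each), and the grey band marks 20 to 80%. Most CpGs of the last stretch of the gamma array sit under 20%, as do the later dense alpha CpGs, while the beta array has 7 of 124 CpGs under 20%.

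In CpG-rich DNA the mean level of the pooled arrays was above the autosomal mean, although not in every part of them, as given below. CpGs were classed by the number of listed CpGs within 250 bp on either side, themselves included: sparse had 1 to 5, middle 6 to 10 and dense 11 or more. Elsewhere on the autosomes dense CpGs are mostly unmethylated, as is usual for CpG islands, and their mean level was 8.46%. The 182 dense CpGs of the arrays averaged 30.7, 31.6 and 31.0% in WT and 33.5, 33.2 and 31.8% in Chd8+/-, and each of the 6 samples exceeded its own autosomal value, by 22.4 to 25.1 points (mean 23.5; exact sign-flip p = 0.03125, adjusted p = 0.0365). With autosomal CpGs weighted to the same densities the autosomal mean was 17.7% and the difference 14.3 points (13.2 to 15.8; exact p = 0.03125). Both comparisons set a single locus against a mean over many. By mean level over the 6 samples, 9774 of the 163776 dense autosomal CpGs were over 80% and 6624 were at 20 to 80%. Whether other autosomal loci have levels like those of the arrays was not tested.

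The excess of the dense class was seen in CpGs with 11 to 20 neighbours counted, and not in the few above that. At 11 to 20 the arrays averaged 34.4% (169 CpGs) against a weighted 18.8% on the autosomes. At over 20, the arrays held 13 CpGs, all in the gamma array, at 0.526%. All 13 lay in the last stretch of that array, described below. The 32 dense CpGs of that stretch, those at 11 to 20 included, were all under 5%. Density and position could thus not be told apart for these CpGs. The autosomes had a weighted 2.58%, a difference of -2.05 points, and an unweighted 2.06%, a difference of -1.53 points. The sparse class went the other way from the dense: its 192 CpGs averaged 54.0% against 69.8% elsewhere (difference -15.8 points, range -17.4 to -13.7; exact p = 0.03125, adjusted p = 0.0365). Middle CpGs averaged 56.6% against 54.0% (2.63 points; exact p = 0.03125), but -0.225 points (exact p = 0.6875) over all member CpGs.

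By array, the dense excess was seen in beta and gamma. Dense beta CpGs, 14 in number, averaged 82.7% against a weighted autosomal 27.8%, and dense gamma CpGs, 137 in number, 31.0% against 17.6% (exact sign-flip p = 0.03125 for each). Of the 14 beta CpGs, 10 lay in a single run (18:37618875-37619122) and the other 4 close together (18:37418415-37418786). They thus stand for few places in the beta array, and the p-value measures samples and not places. The 31 dense alpha CpGs averaged 13.2% against 13.6%, a difference of -2.54 to 2.89 points over the samples (exact p = 0.625). Of these, 27 lay in the later part of the array described below, at 4.74%. The 4 earlier ones averaged 70.3%, and 4 CpGs are too few to say whether alpha lacks the excess. The sparse CpGs were lower than weighted autosomal CpGs in all 3 arrays, by 19.4 points in alpha, 5.63 in beta and 19.8 in gamma. In beta the weighted autosomal mean was 69.5%. The earlier part of that array, as divided below, averaged 49.7% (23 sparse CpGs) and the later part 72.8% (37), so the later part was not lower.

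**Figure D2:**
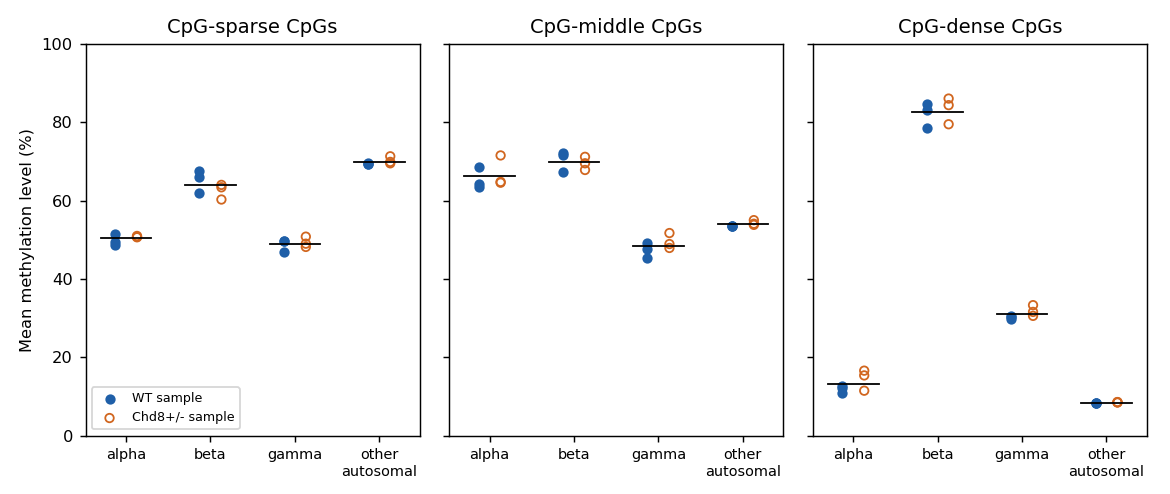
Mean methylation level (%) of CpG-sparse, CpG-middle and CpG-dense CpGs in the alpha, beta and gamma arrays and in all other autosomal CpGs; each point is a sample (filled WT, open Chd8+/-) and each line the mean of the 6. Dense beta and gamma samples stand above the autosomal samples, and sparse samples of all 3 arrays below them.

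Partial methylation, a level of 20 to 80%, was frequent in the arrays. In dense CpGs its share was 38.6 ± 1.98% of the arrays (SD, n = 6) and 4.75 ± 0.193% of the autosomes, a difference of 33.8 points (30.8 to 36.2; exact sign-flip p = 0.03125, adjusted p = 0.0365). Weighting the autosomes to the same densities gave 9.02% and a difference of 29.5 points. In the gamma array the share was 44.0%, between 43.1 and 45.3% in the 6 samples, against a weighted 8.97% (exact p = 0.03125). Above 20 counted CpGs no array CpG was partially methylated in any sample, against a weighted 1.88% on the autosomes (1.84% unweighted). These were the 13 CpGs of the low last stretch of the gamma array.

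By mean level over the 6 samples, 63 of the 124 gamma CpGs with 11 to 20 neighbours counted were at 20 to 80%, 49 under 20% and 12 over 80%. The same class on the autosomes had 7.57% at 20 to 80%, 79.9% under 20% and 12.5% over 80%. In the alpha array 27 of its 31 were under 20%, 3 at 20 to 80% and 1 over 80%. Of the 14 beta CpGs none was under 20%, 5 were at 20 to 80% and 9 over 80%.

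**Figure D3:**
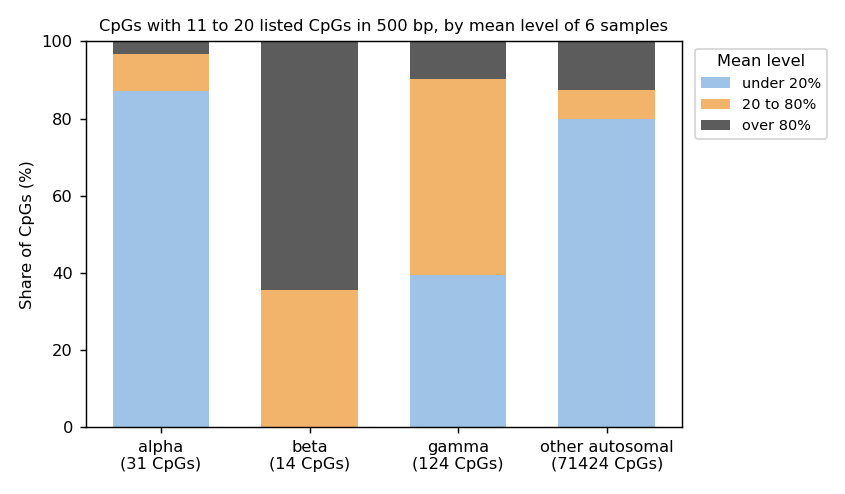
Share of CpGs (%) with 11 to 20 listed CpGs in 500 bp by mean level over 6 samples, under 20%, 20 to 80% or over 80%, in the 3 arrays and all other autosomal CpGs. The partially methylated share was 50.8% in the gamma array and 7.57% elsewhere on the autosomes.

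Levels also differed along an array. CpGs were joined into CpG groups (gaps of at most 500 bp, at least 5 CpGs, at least 3 of them covered in all 6 samples) whatever their density, and each array was then divided at its widest gap between groups; the division was chosen after the values were seen and carries no test. Upstream stands for lower coordinates. In the gamma array 20 groups lay upstream of a 39.3 kb gap and 6 downstream. The upstream groups ranged from 13.6 to 93.5%, 17 of 20 being partially methylated, and the downstream groups from 0.262 to 14.9%. Upstream dense CpGs (105) averaged 40.3 ± 1.68% (SD, n = 6), with 57.5% of them partially methylated per sample, and downstream dense CpGs (32) averaged 0.666 ± 0.245%, all 32 under 5%.

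The later part of the alpha array also held dense DNA with little methylation, although the array did not end in it. Upstream of a 69.1 kb gap its 6 groups ranged from 36.5 to 96.0%, and downstream its 3 groups from 4.18 to 63.8%, the highest of these being the last (18:37289211-37289475), a sparse group beyond both low ones. Downstream sparse CpGs averaged 48.3% in alpha and 12.3% in gamma. The 27 downstream dense CpGs averaged 4.74 ± 2.22% (SD, n = 6), and all of them had a mean under 20%. The beta array had no such dense CpGs: its 7 groups upstream of a 90.4 kb gap ranged from 37.6 to 86.5%, and its 3 downstream groups from 75.1 to 86.6%. In the order of the gene table the C-type genes come last in alpha and gamma and the beta array has none, but these stretches were not placed on genes here. Just ahead of the gamma array a further dense stretch (18:37776988-37777291, mm39), with 25 CpGs covered in all 6 samples, averaged 0.612 ± 0.219% (SD, n = 6). Over CpGs of every density, the upstream part averaged 63.9% in alpha (48 CpGs), 62.9% in beta (70) and 49.3% in gamma (274). The downstream part averaged 19.8% in alpha (48), 75.8% in beta (54) and 4.31% in gamma (58). The order of the whole-array means thus did not hold upstream, where the alpha mean was close to beta and above gamma.

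**Figure D4:**
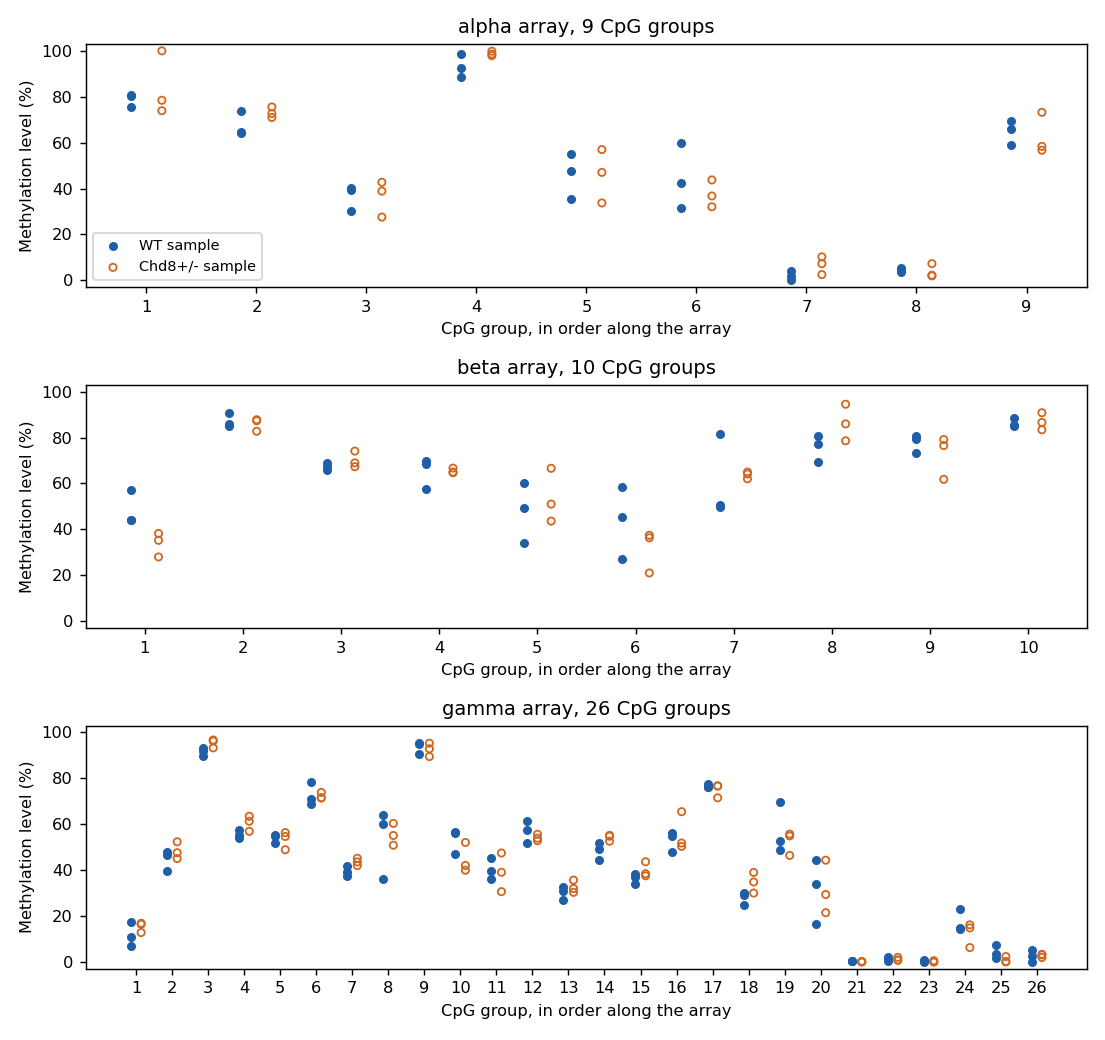
Methylation level (%) of each CpG group in order along the alpha (9 groups), beta (10) and gamma (26) arrays, with filled points for WT samples and open points for Chd8+/- samples. The last 6 gamma groups lie at 0.262 to 14.9% on average and the 20 before them at 13.6 to 93.5%.

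Some gamma groups climbed steeply with the coordinate. In the 17 gamma groups with at least 8 CpGs covered in all samples, the later CpGs of the group exceeded the earlier ones in 12 (70.6%). Over all 17, the 5 that fell included, the mean step was 8.52 points, with sample means of 5.70 to 11.4. Of the 12, 4 had steps of only 0.110 to 2.08 points and did not climb in every sample. Over 13021 autosomal groups the share was 49.9% and the mean 0.0695 points. The alpha array had 2 groups of this size, and both rose, with a mean step of 6.27 points. Of the 4 in the beta array 2 rose and 2 fell, with a mean step of 7.67 points. A beta group (18:37427845-37429117) rose by 39.7 points, so climbing groups were not particular to gamma. Among groups at 20 to 80%, 9 of 13 gamma groups climbed (69.2%), beside 51.2% on the autosomes. The mean step over all 13, climbing or falling, was 10.6 points, beside 0.472 points on the autosomes. In the beta array the 2 groups at that level both climbed, by a mean of 24.9 points. The split of groups was added after the values were seen and is a description. The steepest climb was at 18:37807646-37808574, 35.2% in the earlier and 81.0% in the later CpGs, 45.8 points apart on average and 30.6 to 56.1 in the samples. At 18:37888700-37890228 the levels were 15.0 and 48.0%. The steepest fall, 29.3 points, was at 18:37854494-37855037, so the climb was not shared by every group. Steps over 20 points in either direction occurred in 6 of the 13 gamma groups at 20 to 80% (46.2%), beside 49.5% of autosomal groups at that level. Over groups of every level they occurred in 35.3% of gamma and 9.11% of autosomal groups.

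**Figure D5:**
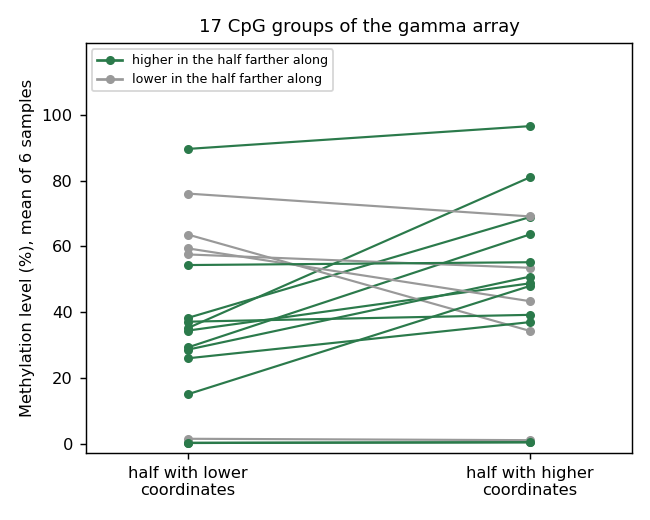
Methylation level (%), mean of 6 samples, of the CpGs with lower and with higher coordinates in each of 17 gamma CpG groups; each line is a group. Green lines, 12 of 17, climb, and grey lines fall.

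Runs of dense CpGs built with the same gap and size rule are called dense clusters, and 16 had values in the arrays, 3 in alpha, 1 in beta and 12 in gamma. Of the 16, 9 (56.3%) had a mean level of 20 to 80%, beside 5.20% of 13609 autosomal clusters. The autosomal clusters were not weighted to the same densities. Density matters here: of single autosomal CpGs, 7.57% with 11 to 20 neighbours counted were at 20 to 80%, and 1.32% of those above 20. The highest gamma cluster (18:37824200-37824444) had 69.2, 71.1 and 78.4% in WT and 70.1, 71.3 and 74.7% in Chd8+/-, and the genotypes overlapped. The lowest (18:37939332-37939821) had 0.483, 0.545 and 0.309% in WT and 0.236, 0 and 0% in Chd8+/-, over 140 to 861 reads per sample. The cluster with the widest range (18:37899828-37900014) had 50.4, 15.7 and 36.3% in WT and 49.3, 19.0 and 27.3% in Chd8+/-, over 66 to 363 reads, so that samples of the same genotype differed more than the genotypes did. The highest alpha cluster (18:37081125-37081283) had 64.7, 73.9 and 64.1% in WT and 71.0, 72.7 and 75.5% in Chd8+/-, again overlapping. The only beta cluster (18:37618875-37619122) lay between 82.1 and 92.6% in all samples.

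At partially methylated CpGs the spread between samples was close to that elsewhere. For CpGs at 20 to 80%, the variance within genotypes was 5.33 times that of read counting in the arrays (262 CpGs, SD 17.5 points, of which counting gives 7.58), beside 5.53 times on the autosomes (SD 18.5 points). In dense CpGs it was 6.47 times in the arrays and 5.38 times on the autosomes. The SD of dense CpGs was 18.5 points in both, and the counting part was 7.27 and 7.97 points, at a median of 52 and 41 reads. Reads carried no molecular identifiers in the labels, so counting error is a lower limit. Across the 552 array CpGs, pairs of WT samples had a Pearson's r of 0.852 to 0.862, pairs of Chd8+/- samples 0.830 to 0.846, and pairs of unlike genotype 0.838 to 0.862, over CpGs that share libraries and are not independent. The autosomal values were higher, at 0.933 to 0.936, 0.918 to 0.923 and 0.922 to 0.930. The arrays also held the larger share of partially methylated CpGs, and its part in the lower r was not tested.

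The design asked whether methylation differed in Chd8+/- neocortex, and over the arrays no difference passed a test. With all arrays together the WT mean was 47.2 ± 0.976% and the Chd8+/- mean 48.0 ± 0.619% (SD, n = 3 each; exact two-sided permutation p = 0.3, adjusted p = 0.6 over 8 comparisons), and 3 against 3 cannot go below 0.1. The alpha array was 1.56 points higher in Chd8+/-, with all 3 samples above all 3 WT (exact permutation p = 0.1, adjusted p = 0.4). This separation was lost over all member CpGs, where the difference was 0.516 points (exact p = 0.9), and with CpGs weighted by reads, where it was 1.06 points (exact p = 0.6). The gamma array was 1.51 points higher (exact p = 0.2) and the beta array -1.52 points different (exact p = 0.4), with overlapping samples. With 1 sample left out, gamma ranged from 0.884 points (without Chd8+/- replicate 1) to 2.05, beta from -2.84 (without WT replicate 3) to -0.359 (without WT replicate 2), and all arrays from 0.391 (without Chd8+/- replicate 1) to 1.39 (without WT replicate 2). Dense CpGs of the arrays were 1.75 points higher, again without overlap (exact p = 0.1, adjusted p = 0.4), and sparse CpGs differed by -0.366 points (exact p = 0.7). Over all other autosomal CpGs the Chd8+/- samples were 0.599 points higher, also without overlap, and the genotype difference of the arrays exceeded that one by 0.238 points (exact p = 0.7). WT samples had 45.0 ± 2.89% of array CpGs partially methylated, and Chd8+/- samples 44.2 ± 1.55% (SD, n = 3 each; exact p = 0.8). Every Chd8+/- library was shallower. The share expected at 10 reads per CpG in every sample differed by -0.467 points (exact p = 0.7). With at least 20 reads in all 6 samples the differences were 2.70 points in alpha (exact p = 0.1), -0.194 in beta (exact p = 1), 1.34 in gamma (exact p = 0.2) and 1.84 in dense CpGs (exact p = 0.1), and weighting by reads gave 2.72 in dense CpGs (exact p = 0.1).

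No CpG, dense cluster or CpG group of the arrays was called at an adjusted p under 0.05 by edgeR's quasi-likelihood test with Benjamini-Hochberg adjustment over all autosomal features. On the autosomes as a whole the called share was 0% too. On simulated CpG groups with the spread of the real groups this test gave the right direction but called none of the 200 changes after adjustment. The absence of calls among groups thus says little about whether levels differed. Single CpGs and dense clusters were not simulated, so what the absence of calls means for them was not tested. Of 766 array CpGs 702 could be tested, the others being at 0% or 100% throughout, and the lowest adjusted p was 0.811. limma, the other replicate-aware test run, called none of these features either. Fisher's exact test, which pools the reads of each genotype and leaves out the differences between samples, called 161 of 766 CpGs, 5 of 16 clusters and 17 of 45 groups, beside 15.4%, 22% and 33.9% on the autosomes. With edgeR at an unadjusted p under 0.05, 9 of the 702 tested array CpGs were higher and 9 lower in Chd8+/-, beside 1.75% and 1.27% of tested autosomal CpGs. Among the 552 CpGs covered in all samples, 29 had all Chd8+/- samples above all WT (5.25%) and 23 below (4.17%), beside 3.48% and 2.32% of autosomal CpGs. Among the 262 at 20 to 80% these were 14 (5.34%) and 9 (3.44%), beside 6.26% and 3.96%, so at like levels the arrays were near the background.

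The 3 array CpGs with the smallest p are given as values. At 18:37428478 in the beta array all WT samples had 100% and the Chd8+/- samples 87.8, 96.4 and 93.5% (edgeR, adjusted p = 0.811). At 18:37453250, also in the beta array, the WT samples had 20.7, 7.89 and 25% and all Chd8+/- samples 0% over 27 to 99 reads (edgeR, adjusted p = 1). At 18:37312388 in the alpha array the WT samples had 0% and the Chd8+/- samples 0, 7.89 and 22.1% (edgeR, adjusted p = 1). In each the genotypes were separated or touched only at 1 value, and none passed the adjustment.

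Among dense clusters the largest genotype difference in the gamma array was at 18:37807775-37807849, with 29.6, 33.1 and 37.4% in WT and 44.8, 50.3 and 27.8% in Chd8+/-, a difference of 7.59 points with overlap. It was 2.92 points without Chd8+/- replicate 2 and 14.2 without Chd8+/- replicate 3. At 18:37888742-37888956 the WT samples had 8.48, 10.1 and 11.3% and the Chd8+/- samples 14.9, 19.1 and 15.1%, a difference of 6.44 points without overlap (edgeR, adjusted p = 0.9991). In the alpha array, 18:37223106-37223590 had 0.183, 4.03 and 1.83% in WT and 2.50, 7.22 and 10.2% in Chd8+/-, 4.62 points apart and 2.85 without Chd8+/- replicate 3 (edgeR, adjusted p = 0.9991). The gamma cluster at 18:37948226-37948696 stayed under 1% in every sample (edgeR, adjusted p = 0.9991). None of the 16 clusters had an unadjusted p under 0.05, beside 1.39% higher and 2.18% lower among autosomal clusters. Of the 16, 1 lay higher and 1 lower in all Chd8+/- samples, beside 3.31% and 4.35% of autosomal clusters.

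Of the 45 CpG groups, 29 (64.4%) were at 20 to 80%, beside 24.9% of 39010 autosomal groups, again not weighted for density. By their means 23 of the 45 were higher and 22 lower in Chd8+/-. All Chd8+/- samples lay above all WT in 3 groups and below in 2, beside 5.64% and 3.96% of autosomal groups. The smallest p was at 18:37398276-37398403 in the beta array, with 44.3, 57.0 and 44.2% in WT and 28.0, 35.2 and 38.2% in Chd8+/-, a difference of -14.7 points without overlap (edgeR, adjusted p = 0.9994). No group of the arrays reached an unadjusted p of 0.05, beside 2.23% higher and 1.72% lower on the autosomes.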

How the data were processed

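RRBS data of 6 neocortex samples came as a table of CpG cytosines per library. Coverage is a count of reads and the methylation level a percent, per the file headers; the authors' tables list no cytosine under 10 reads. Trim Galore 0.4.4, Bismark 0.20.0, SAMtools 1.9 and mm39 are named in the submitters' processing notes; their settings are not given in the sources used here. Methylated reads were coverage times percent, rounded, and were whole within 0.02 for over 99.9% of cytosines. Strands were merged.

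Sample means were unweighted over CpGs and compared by exact permutation or sign-flip tests. Reads of all autosomal CpGs, dense clusters and CpG groups were tested with edgeR 4.0.16 in R 4.3.3, with a coverage term per sample, a common dispersion from 20000 rows and CpGs at 0% or 100% throughout left out. limma 3.58.1 and Fisher's exact test were alternatives. The tests were tested on simulated CpG groups, whose spread was set from the real groups after a first choice had been replaced. Other steps ran in Python 3.11.15 (scipy 1.17.1, numpy 2.4.6, pandas 2.3.3), with plots from matplotlib 3.10.9.

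Named clusters were, in each array, those with the highest and lowest level, largest genotype difference and widest range, and overall the 3 CpGs and 3 clusters with the smallest p. The members and lists were chosen with earlier results of these data known. Density weighting, CpG groups, the division at the widest gap and the split of groups were added after the values were seen. Promoters of member genes were not analysed here, because the gene table follows another build, and no sequence is printed.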

Additional observations from a re-analysis of the deposited data

How the results depend on the processing

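Beyond 3 arrays and 6 samples, depth and the number of samples limit precision, and leaving out any sample leaves 5, for which a sign-flip p cannot go below 0.0625. With each sample left out in turn, alpha minus beta ranged from -27.3 to -25.1 points, beta minus gamma from 26.0 to 29.5, dense arrays minus autosomes from 22.6 to 24.4, middle from 1.10 to 2.54, sparse from -16.4 to -13.9 and the dense partial share from 31.8 to 34.5, all in the same direction. Under the same omissions alpha minus gamma ranged from -0.143 to 3.50, the genotype difference of sparse CpGs from -0.992 to 0.774, that of the partial share from -2.01 to 0.830, that of the arrays minus autosomes from -0.442 to 0.798 and the spread ratio from 5.14 to 5.88. The alpha group at 37153556 to 37154002 had a genotype difference of -13.4 to 0.622 points, the last without WT replicate 2. Over every member CpG the genotype difference in partial share was 0.189, alpha minus gamma 6.10, middle arrays minus autosomes -0.225 and the genotype difference of arrays minus autosomes -0.323. Weighting by reads gave alpha minus gamma -2.47 and the genotype difference of arrays minus autosomes -1.84. Limits of 30 and 70% gave a partial-share difference of 0.604. With dense set at over 20 the dense genotype difference was -0.0402, dense arrays minus autosomes -1.53 and the partial-share difference -1.84. In replicate 3 alone the genotype difference was 0.459 in the beta array, 0.376 in sparse CpGs and -0.0301 for arrays minus autosomes, and in replicates 1 and 2 alone the partial-share difference was 0.906. The cause was not tested for any of these. With reads pooled by genotype, Fisher's exact test called 161 CpGs, 5 clusters and 17 groups of the arrays. Samples with the same replicate number did not deviate together over array CpGs (correlations of -0.00383, 0.00825 and -0.0620). This cannot show that they were unpaired, and replicate 3 of both genotypes had the higher share of reads on chromosome X. With the replicate block 0 CpGs, 0 clusters and 0 groups were called. Of the values compared with their main setting, 156 kept direction and side of the threshold, 36 kept direction but not the threshold and 21 changed sign. A further 1, alpha minus gamma over all member CpGs, kept direction and passed the threshold, and 4 others moved beyond the limit set for them. The 36 were sign-flip tests with 1 sample left out, whose loss of the threshold was fixed in advance. The exact genotype tests cannot go below 0.1, so they could not cross it, and the tally does not measure how stable they are. Analyses of member promoters were not run.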
